A study of Mus musculus with 6 samples.

Results

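Forkhead transcription factors are proteins that share the winged-helix DNA-binding domain, in which a recognition helix reads the core of the target sequence. The mouse genes are named Fox with a letter for the subfamily and a number for the member. Here the family was taken as every symbol of the deposited gene count table made of Fox, a letter from a to s and a number, which gave 44 genes of 41327. The rule used names only and no measured value. The 44 genes fell into 19 subfamilies on 16 chromosomes.

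The libraries were made from ID8, an immortalized line from the ovarian surface epithelium of C57BL/6 mice. Cells grew asynchronously without treatment, and 6 libraries of total RNA were sequenced, of which 3 carry the genotype Trp53-/- in their labels (here Trp53_KO) and the other 3 carry Trp53+/+ (here Trp53_WT). The gene makes the tumour suppressor p53. How Trp53 was disrupted, and whether the replicates are separate clones or cultures, is not given in the sources used here, so each p-value refers to the spread of these libraries alone, and that spread may be technical. The total gene count per library ran from 15319956 to 19954170.

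Values are CPM, counts divided by a library size that was corrected for composition (TMM). Trp53 was at 25.3 to 29.6 CPM in Trp53_KO and at 97.3 to 110.1 CPM in Trp53_WT, with no overlap. Of 14 markers fixed for ovarian surface and mesothelial cells, 13 passed the filter on low counts, and the whole list summed to 4096 to 4385 CPM in Trp53_KO and 4017 to 4088 CPM in Trp53_WT. Within it 5 genes rose and 4 fell (edgeR, adjusted p under 0.05), where 14.1% of all tested genes rose and 16.1% fell. The called markers included Lrrn4 (log2 fold change 8.04), Upk3b (2.85) and Bnc1 (-8.93), so the near-equal sums do not show equal markers. These 3 were named after their values were seen. Aldh1a2 had no count. Trp53_WT replicate 1 stood apart over all tested genes, and for the forkhead genes mostly upwards. It lay above both other Trp53_WT libraries for 76.0% of the 25 forkhead genes tested, against 40.9% of all tested genes, and below both for 20%, against 41.2%. Of the members described here, Foxo1 (-0.83 to -0.45), Foxm1 (-0.26 to -0.10), Foxj2 (-0.24 to -0.11), Foxd2 (-0.55 to -0.35), Foxo3 (-0.06 to -0.01) and Foxk1 (-0.15 to 0.02) had log2 fold changes that moved towards or past 0 by over 1.5 times when that library was left out. Foxn3, Foxp4, Foxa1 and Foxk2, with values from -0.06 to -0.00 on all libraries, were above 0 without it, at 0.11, 0.09, 0.24 and 0.02, and did not pass the test either way. In bulk RNA, fewer cells of a type and less RNA per cell cannot be told apart.

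Members of the family act in very different settings. Foxo proteins are held in the cytoplasm when insulin signalling activates the kinase Akt, and enter the nucleus to raise stress-resistance and metabolic genes when it is low. Foxm1 drives genes of mitosis, Foxf and Foxc genes pattern mesenchyme and vessels, and Foxa proteins open closed chromatin in endoderm-derived and glandular epithelia. In the ovary, the member known best is Foxl2, which maintains granulosa cells.

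The following sequences are the coding stretch of the recognition helix in 7 of the 13 members that passed the test, shown because they place the genes side by side at the most conserved part of the family. Each has 30 bases (10 codons), was read 5′ to 3′ from the GENCODE M21 transcripts, and has capitals where a base differs from the commonest base among the 13.
Foxs1: aacAGcatccgccaTaacctgtcTctcaac
Foxc1: aacAGcatAcgGcacaacctCtcgctcaac
Foxf1: aactccGtGcgccacaacctgtcgctcaac
Foxf2: aactccGtGcgccacaacctCtcgctcaac
Foxq1: aactccGtGcgccacaacctCtcgctcaac
Foxn1: aaTtcTGtTcgccaTaacctgtcCctcaac
Foxo6: aactccatTcgGcacaacctgtcgctGCac
Foxf2 and Foxq1 carry the same letters here. Of the 30 positions, 12 were identical in all 13. The stretch was found in 40 of the 44 members. Over whole transcripts, the longest exact match of a called gene described here with any other member was between 20 bases (Foxo4 with Foxo6) and 53 bases (Foxc1 with Foxc2). For Foxs1 it was 26 bases, with Foxl1.

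Of the 44 genes, 25 had enough counts to be tested, and 19 did not. No count at all was found for 13 of them, which were Foxb1, Foxb2, Foxd3, Foxd4, Foxe1, Foxe3, Foxi1, Foxi2, Foxi3, Foxl1, Foxl2, Foxn4 and Foxr2. For each, a count of 0 allows up to 3 counts over a group, or 0.0546 CPM in Trp53_KO and 0.0559 CPM in Trp53_WT. The other 6 had between 1 and 7 counts over all 6 libraries. Foxh1, a partner of SMAD proteins in nodal signalling, had 7, and Foxp3, the factor of regulatory T cells, had 3. Foxa3 had 3, Foxp2 had 2, and Foxc2 and Foxr1 had 1 each. The lowest total among the tested genes was 51. In each library, between 26 and 29 of the 44 genes had a count.

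In Trp53_KO, 4 forkhead genes rose and 9 fell at an adjusted p under 0.05 (edgeR quasi-likelihood test, Benjamini-Hochberg over all 13651 genes tested). The 13 called are 52.0% of the 25 tested, where 30.3% of all tested genes were called. The 4 that rose were Foxs1, Foxc1, Foxo6 and Foxo4, or 16% of those tested, against 14.1% of all genes. The 9 that fell were 36.0% of those tested, against 16.1% of all genes, and included Foxf1, Foxn1, Foxd1, Foxo1, Foxq1, Foxa2, Foxp1 and Foxf2. For 17 of the 25, or 68.0%, the ranges of both genotypes were apart, where 46.0% of all tested genes had no overlap. These were the 13 called genes together with Foxm1, Foxj2, Foxj3 and Foxn2. The median log2 fold change of the 25 was -0.24, beside -0.02 over all genes tested. The 25 passed a filter on counts, so these shares do not stand for all 44 members.

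**Figure D1:**
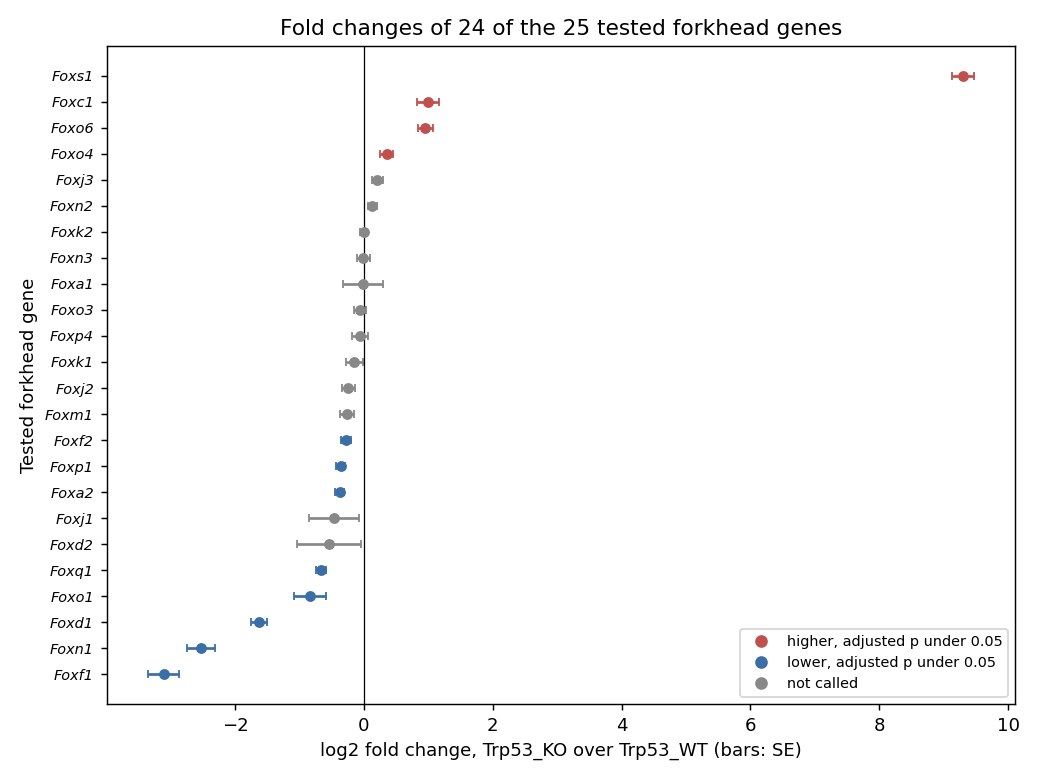
Log2 fold change (horizontal axis, Trp53_KO over Trp53_WT, bars show the SE) for 24 of the 25 tested forkhead genes (vertical axis), coloured by call. Foxs1 stands alone at 9.30, and the lowest value is -3.11 for Foxf1.

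Foxs1 had the largest change of the family. It encodes a factor known from vessel-associated and neural crest-derived cells. Its level was 61.1, 62.4 and 66.1 CPM in the Trp53_KO libraries, in order of replicate, and 0.135, 0.0495 and 0.107 CPM in the Trp53_WT libraries. Every Trp53_KO library was high, and every Trp53_WT library was close to no signal. The sums were 3476 counts in Trp53_KO and 5 counts in Trp53_WT, a ratio of 679 after scaling with an exact 95% interval of 291 to 2092 that covers counting error only. The fitted log2 fold change was 9.30 ± 0.17 (SE, edgeR adjusted p = 1.1e-09), and it ran from 8.97 to 9.56 over 14 alternative settings.

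Per length of annotated exon, Foxs1 was the lowest of the 25 tested genes in Trp53_WT, at 0.0742 ± 0.0333 CPM per kb (SD, n = 3). It was the highest in Trp53_KO, at 48.2 ± 2.0 CPM per kb (SD, n = 3). A gene this low in both genotypes would have failed the filter on low counts, which Foxs1 passed through its Trp53_KO libraries. Its place in Trp53_WT therefore holds among tested genes only and partly follows from that filter. Foxh1, the highest member not tested, was lower still in Trp53_WT, at 0.0296 ± 0.0261 CPM per kb (SD, n = 3). Foxs1 made up 20.6% to 22.0% of the summed per-length level of the family in Trp53_KO libraries and 0.0198% to 0.0474% in Trp53_WT libraries. Foxs1 lies at chr2:152931898-152933208 on the minus strand (GRCm38, the assembly of mm10). Its nearest tested neighbour, the muscle kinase gene Mylk2 at a distance of 8.83 kb, was at 2.34 ± 0.39 CPM in Trp53_KO and 0.120 ± 0.11 CPM in Trp53_WT (SD, n = 3 each) and also rose, by 4.10 ± 0.43 (log2, SE, edgeR adjusted p = 7.1e-05). Mylk2 too passed the filter on low counts through its Trp53_KO libraries, so its rise partly follows from that filter. Pdrg1, 75.7 kb from Foxs1 on the other side, did not pass the test (0.07 ± 0.09, edgeR adjusted p = 0.57).

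Markers of vessel-associated cells were read beside it. Over all tested genes, 14.1% rose and 16.1% fell, shares to read the marker counts here against. Of 10 genes listed for pericytes and smooth muscle, 3 were tested and 2 of them, Mcam and Acta2, rose. The summed level was 17.8 to 21.3 CPM in Trp53_KO and 1.73 to 2.73 CPM in Trp53_WT. Mcam alone was at 17.3 ± 1.7 CPM in Trp53_KO and 0.912 ± 0.28 CPM in Trp53_WT (SD, n = 3 each), nearly all of the Trp53_KO sum. The other genes of the list were below 1 CPM on average in each group. Kcnj8 and Abcc9, known from pericytes, had no count. Of 8 endothelial markers, 2 were tested and both, Esam and Pecam1, rose, with list sums of 30.5 to 37.9 and 14.6 to 16.1 CPM. Esam made up most of these sums, at 32.9 ± 4.1 and 14.98 ± 0.82 CPM (SD, n = 3 each). Acta2 and Pecam1, at means of 0.223 and 0.153 CPM in Trp53_WT, passed the filter on low counts through their Trp53_KO libraries. Their rise therefore partly follows from that filter. Vwf, not tested, had 0 counts in Trp53_KO and 16 in Trp53_WT, and Cdh5, Kdr and Emcn had no count. The part of other cell types in the Foxs1 result was not tested.

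**Figure D2:**
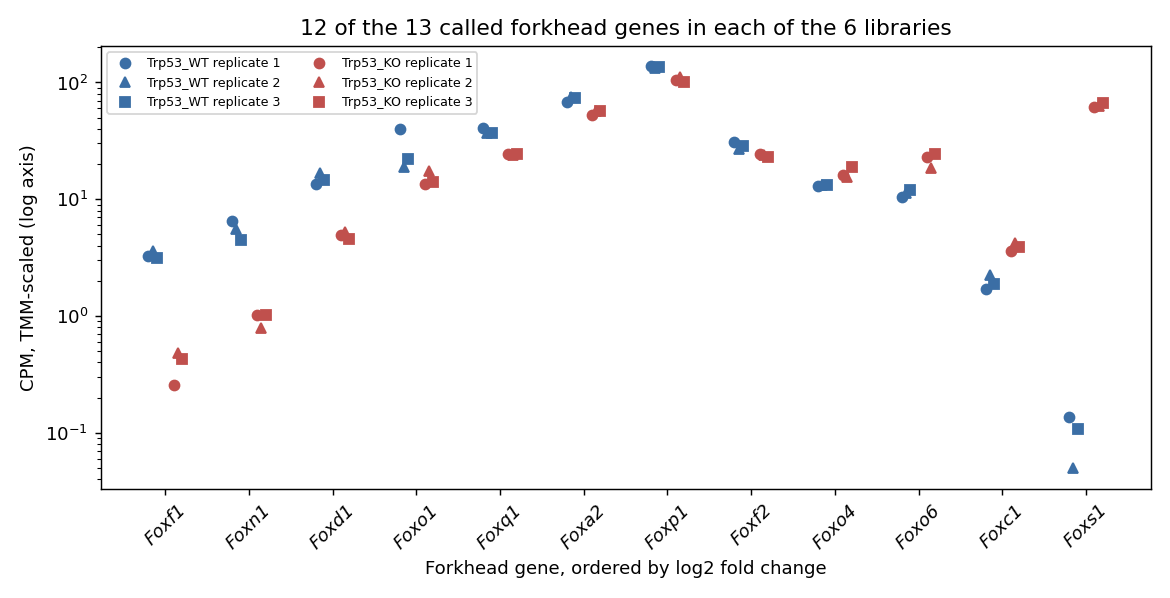
Level of 12 of the 13 called forkhead genes (horizontal axis) in the 6 libraries, as CPM on a log axis. Red marks are Trp53_KO and blue marks Trp53_WT, with a shape per replicate. The colours do not mix for any of the genes shown, and Foxo1 has Trp53_WT replicate 1 well above the other Trp53_WT libraries.

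The genes known from mesenchyme moved in both directions. Foxf1, which acts downstream of hedgehog signals in lung and gut mesenchyme, was at 0.255, 0.483 and 0.426 CPM in Trp53_KO and at 3.24, 3.61 and 3.16 CPM in Trp53_WT. With 21 counts against 180 over the groups, it fell by 3.11 ± 0.24 on the log2 scale (SE, edgeR adjusted p = 9.6e-06), the largest fall of the family. Its relative Foxf2 was at 24.6, 23.8 and 23.0 CPM in Trp53_KO and at 31.1, 27.2 and 28.4 CPM in Trp53_WT. Foxf2 fell by 0.28 ± 0.08 (log2, SE, edgeR adjusted p = 0.031), and this call was lost under 6 of 14 alternatives, with adjusted p up to 0.098. Of these relatives, the one at the lower level thus had the larger fall.

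Foxd1, a gene of kidney stromal progenitors, was at 4.90, 5.19 and 4.52 CPM in Trp53_KO and at 13.4, 16.6 and 14.7 CPM in Trp53_WT. It fell by 1.62 ± 0.12 (log2, SE, edgeR adjusted p = 7.6e-06), and the lowest Trp53_WT library was more than 2-fold above the highest of Trp53_KO. Foxc1, needed for eye, skull and vessel development, went the other way. It was at 3.62, 4.23 and 3.88 CPM in Trp53_KO and at 1.69, 2.23 and 1.88 CPM in Trp53_WT, and it rose by 1.0 ± 0.17 (log2, SE, edgeR adjusted p = 0.0014). Its close relative Foxc2 had 1 count in all. Of 9 fibroblast markers, 5 were tested and all 5 rose, where 14.1% of all tested genes did. The list summed to 937 to 1120 CPM in Trp53_KO and 230 to 291 CPM in Trp53_WT. Col1a1, Col3a1 and Dcn made up most of these sums, at means of 551.3, 268.4 and 235.5 CPM in Trp53_KO and 144.5, 3.08 and 102.2 CPM in Trp53_WT. Col15a1, at a mean of 0.442 CPM in Trp53_WT, passed the filter on low counts through its Trp53_KO libraries. Of those not tested, Col1a2, Dpt and Fap had 2 counts each in Trp53_KO and 1, 0 and 7 in Trp53_WT, and Lum had none. The part of fibroblasts in the changes of Foxc1, Foxd1 and the Foxf genes was not tested.

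Several of these genes lie together in the genome. Foxq1, Foxf2 and Foxc1 occupy 256.3 kb of chromosome 13, in that order and on the plus strand. Along it the log2 fold changes were -0.67, -0.28 and 1.0. Foxc1 at the end of the cluster thus rose while its neighbours fell, and Gmds, 7.10 kb beyond Foxc1, did not pass the test (-0.01 ± 0.09, edgeR adjusted p = 0.97). Foxf1, Foxc2 and Foxl1 occupy 46.3 kb of chromosome 8. There Foxf1 fell, Foxc2 had 1 count, Foxl1 had none, and Mthfsd, 3.48 kb from Foxf1, did not pass the test (-0.09 ± 0.09, edgeR adjusted p = 0.48).

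Foxq1, studied in hair and in the change of epithelial cells towards a mesenchymal form, was at 24.4, 23.7 and 24.2 CPM in Trp53_KO and at 41.0, 36.6 and 37.2 CPM in Trp53_WT. It fell by 0.67 ± 0.08 (log2, SE, edgeR adjusted p = 1.5e-04) and dropped from the 7th to the 14th place of the 25 genes per length. A gene on the opposite strand overlaps Foxq1, A530084C06Rik, with 132 counts in Trp53_KO and 135 in Trp53_WT (log2 fold change -0.06, edgeR adjusted p = 0.82). Whether counting used strand is not given in the sources used here. Foxa2, a chromatin-opening factor of liver, lung and uterine glands, was at 52.5, 57.1 and 57.5 CPM in Trp53_KO and at 67.9, 75.8 and 73.2 CPM in Trp53_WT. It fell by 0.38 ± 0.08 (log2, SE, edgeR adjusted p = 0.0046), while the related Foxa1 was at 0.857 ± 0.055 and 0.882 ± 0.31 CPM (SD, n = 3 each) and did not pass the test (edgeR adjusted p = 0.98).

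Foxn1, the factor of thymic epithelium and hair whose loss gives nude mice, was at 1.02, 0.785 and 1.01 CPM in Trp53_KO and at 6.48, 5.59 and 4.45 CPM in Trp53_WT. It fell by 2.53 ± 0.21 (log2, SE, edgeR adjusted p = 1.5e-05), and the highest Trp53_KO library was below the lowest Trp53_WT library by more than 4-fold. Its neighbours Unc119 and Slc13a2, 8.41 and 10.5 kb away, did not pass the test (edgeR adjusted p = 0.11 and 0.47). The other tested Foxn genes, which are widely expressed repressors, were far higher. Foxn2 was at 133.5 ± 11.5 CPM in Trp53_KO and 121.7 ± 4.4 CPM in Trp53_WT, and Foxn3 was at 38.9 ± 1.8 and 39.2 ± 5.6 CPM (SD, n = 3 each). Neither passed the test (edgeR adjusted p = 0.22 and 0.97).

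Foxp1, a repressor active in B cells, heart and lung, was at 104.6, 111.6 and 101.1 CPM in Trp53_KO and at 138.2, 133.6 and 134.9 CPM in Trp53_WT. It fell by 0.36 ± 0.07 (log2, SE, edgeR adjusted p = 0.0023). Foxp4, its partner in lung and gut, was at 29.5 ± 2.2 and 30.9 ± 5.5 CPM (SD, n = 3 each) and did not pass the test (edgeR adjusted p = 0.74).

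Among the Foxo genes, which act at the end of the insulin and Akt pathway, 2 rose, 1 fell and Foxo3 did not pass the test. Foxo6, the member known from brain and liver, was at 22.8, 18.4 and 24.4 CPM in Trp53_KO and at 10.5, 11.2 and 12.1 CPM in Trp53_WT. It rose by 0.96 ± 0.12 (log2, SE, edgeR adjusted p = 2.5e-04), with no overlap of the groups. Foxo4 was at 16.2, 15.4 and 19.0 CPM in Trp53_KO and at 13.03, 13.3 and 13.2 CPM in Trp53_WT. Its rise of 0.36 ± 0.10 (log2, SE, edgeR adjusted p = 0.028) was lost when Trp53_KO replicate 1 or 3 or Trp53_WT replicate 2 or 3 was left out (edgeR adjusted p from 0.056 to 0.099).

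Foxo1, the member best known for glucose metabolism, was at 13.6, 17.3 and 14.1 CPM in Trp53_KO and at 39.7, 19.0 and 22.0 CPM in Trp53_WT. Trp53_WT replicate 1 was the high library, and the highest Trp53_KO value lay just under the lowest of Trp53_WT. The fall was 0.83 ± 0.25 (log2, SE, edgeR adjusted p = 0.030), and without that library the fit gave -0.45 (edgeR adjusted p = 0.0043). The call was lost with DESeq2 (adjusted p = 0.060) and without any 1 Trp53_KO library (edgeR adjusted p from 0.055 to 0.10). Foxo3 was at 46.1 ± 4.2 CPM in Trp53_KO and 48.1 ± 3.6 CPM in Trp53_WT (SD, n = 3 each; edgeR adjusted p = 0.68).

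Per exon length, the summed Foxo level was 18.9 to 22.7 CPM per kb in Trp53_KO and 16.2 to 19.2 CPM per kb in Trp53_WT, so the ranges overlapped. The overlap came from Trp53_WT replicate 1, at 19.15, while replicates 2 and 3 were at 16.17 and 17.34 CPM per kb. Its make-up differed. Foxo6 gave 37.2% to 41.2% of the sum in Trp53_KO and 21.03% to 26.6% in Trp53_WT, and Foxo1 gave 7.18% to 10.6% and 13.6% to 23.9%. The 23.9% was that of Trp53_WT replicate 1, with 13.6% and 14.6% in replicates 2 and 3. These shares describe the libraries and were not tested.

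**Figure D3:**
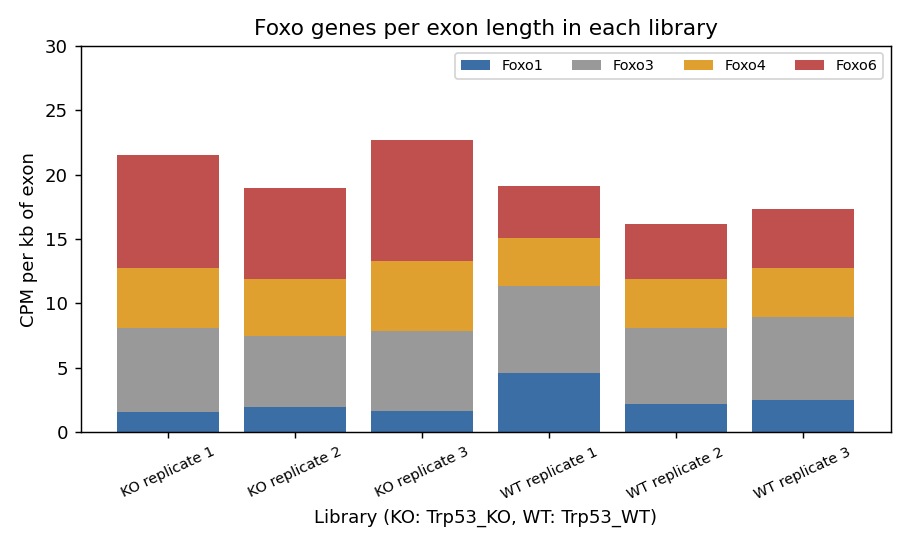
CPM per kb of exon (vertical axis) of Foxo1, Foxo3, Foxo4 and Foxo6, stacked, in each library (horizontal axis). The red Foxo6 part is larger in the 3 Trp53_KO libraries, and the blue Foxo1 part is largest in Trp53_WT replicate 1.

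The kinases, phosphatase and adaptors upstream of Foxo proteins were taken as a list of 28 genes. All 28 were tested, 5 rose and 6 fell, with a median log2 fold change of -0.08. The shares over all tested genes to read this and the following list counts against are 14.1% higher and 16.1% lower, with a median of -0.02. Irs1, the insulin receptor adaptor, was at 9.42 ± 0.39 CPM in Trp53_KO and 1.19 ± 0.09 CPM in Trp53_WT and rose by 2.98 ± 0.14 (edgeR adjusted p = 3.4e-07). Sgk3 and Sgk1, kinases that phosphorylate Foxo proteins, fell by 1.10 ± 0.11 and 0.56 ± 0.06 (edgeR adjusted p = 4.6e-05 and 7e-05). Skp2, which marks Foxo1 for degradation, rose by 0.52 ± 0.07 (edgeR adjusted p = 4.2e-04).

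Of 34 genes listed as Foxo targets, 27 were tested, of which 2 rose and 11 fell, with a median of -0.16. Those that rose were Gadd45a, a DNA damage response gene, by 0.86 ± 0.10 (edgeR adjusted p = 1e-04), and Sesn1, by 0.72 ± 0.09 (edgeR adjusted p = 2.1e-04). Both are also known targets of p53. So are Bbc3 and Sesn2 of the same list, which fell by 1.06 ± 0.27 and 0.44 ± 0.09 (edgeR adjusted p = 0.015 and 0.0041). Bbc3 and Sesn2 were named after their values were seen. Pdk4, which limits the use of pyruvate, fell by 0.93 ± 0.11 (edgeR adjusted p = 1.9e-04), and Sesn3 by 0.74 ± 0.10 (edgeR adjusted p = 3.4e-04). Klf15, Igfbp1, G6pc and Pck1, targets best known from liver, had no count.

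The most abundant forkhead genes per length in Trp53_WT, Foxm1 and Foxk2, did not pass the test. Foxk2, a repressor of autophagy genes, was at 174.2 ± 3.1 CPM in Trp53_KO and 174.5 ± 5.6 CPM in Trp53_WT (SD, n = 3 each), and the fitted difference was -0.00 ± 0.06 (log2, SE, edgeR adjusted p = 0.98). Foxm1, the factor of mitotic genes, was at 179.6, 169.6 and 171.1 CPM in Trp53_KO and at 252.6, 181.4 and 189.4 CPM in Trp53_WT. Its groups did not overlap, but its difference of -0.26 ± 0.11 (log2, SE) did not pass the test (edgeR adjusted p = 0.12), and Trp53_WT replicate 1 was again the high library. Without that library its difference was -0.10 (edgeR adjusted p = 0.24). It passed without Trp53_WT replicate 2 (-0.34, edgeR adjusted p = 0.049) and with no filter on low counts (-0.24, edgeR adjusted p = 0.037). Per length, Foxm1, Foxk2 and Foxa2 were the 3 highest forkhead genes in Trp53_WT, at 36.1 ± 6.8, 33.2 ± 1.1 and 30.5 ± 1.7 CPM per kb (SD, n = 3). The order of Foxm1 and Foxk2 there lay within their spread.

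Of 31 Foxm1 targets and partners, 5 rose and 3 fell, with a median of 0.04. Ccnb2 and Cdc20, genes of mitotic entry and exit, rose by 0.39 ± 0.07 each (edgeR adjusted p = 0.0014 and 0.0025), and Rbl2, a repressor of the cell cycle, fell by 0.37 ± 0.08 (edgeR adjusted p = 0.0049).

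**Figure D4:**
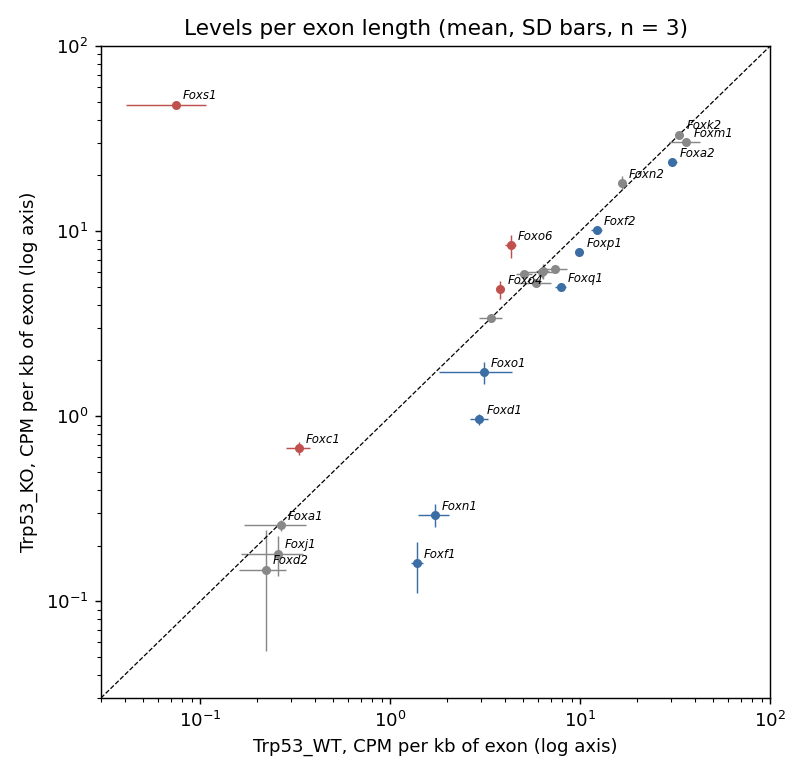
Mean CPM per kb of exon of 24 of the 25 tested forkhead genes in Trp53_WT (horizontal, log axis) and Trp53_KO (vertical, log axis), with SD bars (n = 3) and a dashed line of equal levels. Red genes rose, blue fell and grey were not called. Foxs1 lies at the upper left, from 0.0742 to 48.2 CPM per kb, while Foxk2 and Foxm1 stay near the line.

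The remaining tested genes did not pass. Foxk1 was at 39.9 ± 1.8 CPM in Trp53_KO and 44.3 ± 8.7 CPM in Trp53_WT (edgeR adjusted p = 0.43). Foxj2 was at 33.3 ± 1.3 and 39.4 ± 5.9 CPM (edgeR adjusted p = 0.13), and Foxj3 at 64.4 ± 2.1 and 55.8 ± 5.6 CPM (SD, n = 3 each, edgeR adjusted p = 0.10). Foxj3 passed only without Trp53_WT replicate 1, with a log2 fold change of 0.28 (edgeR adjusted p = 0.0062). Foxj1, the master gene of motile cilia, was at 0.475 ± 0.11 and 0.670 ± 0.24 CPM, and Foxd2 at 0.383 ± 0.24 and 0.572 ± 0.16 CPM (SD, n = 3 each, edgeR adjusted p = 0.40 and 0.45). Of 23 genes listed for the Foxj1 cilium programme, 21 were in the table and 3 were tested, which were Tubb4b, Rfx2 and Rfx3. None of the 3 was called by edgeR, limma-voom or DESeq2, and 0 had an unadjusted p under 0.05 in any of them. The other genes had too few counts, with 8 of the 21 at no count, so the programme as a whole was not tested.

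Gene groups that act with other members were also read from the lists. Of 17 hedgehog pathway genes, to which Foxf1 responds in mesenchyme, 11 were tested, 5 rose and 1 fell, with a median of 0.13. Gas1, a co-receptor, was at 143.3 ± 7.5 CPM in Trp53_KO and 44.6 ± 1.9 CPM in Trp53_WT (SD, n = 3 each) and rose by 1.68 ± 0.07 (edgeR adjusted p = 1.8e-07). The co-receptors Cdon and Boc rose by 0.47 ± 0.07 and 1.01 ± 0.26 (edgeR adjusted p = 9.5e-04 and 0.017), and the ligand Dhh by 0.55 ± 0.11 (edgeR adjusted p = 0.0044). Ptch1, the receptor and a target of the pathway, fell by 0.49 ± 0.15 (edgeR adjusted p = 0.039), and is named after its values were seen as the 1 gene of the list that fell. It was at 24.7, 23.6 and 26.2 CPM in Trp53_KO and at 44.75, 32.2 and 27.99 CPM in Trp53_WT, with replicate 1 the highest. Gli1, not tested and also named after its values were seen, had 20 counts in Trp53_KO and 8 in Trp53_WT. Shh and Gli2 had no count.

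Foxl2 had no count. Of 24 genes listed as its partners and as granulosa genes, 17 were tested, of which 10 rose, 3 fell and 4 were not called, with a median of 0.74, where 14.1% of all tested genes rose and 16.1% fell. Nr5a2, Esr2, Cyp19a1, Cyp11a1 and Fshr had no count. The list summed to 1358 to 1412 CPM in Trp53_KO and 1499 to 1658 CPM in Trp53_WT. Ptgs2 alone made up most of the Trp53_WT sum, at a mean of 933.5 CPM, and was at 234.2 CPM in Trp53_KO. The lower Trp53_KO sum therefore does not describe the list as a whole. Ptgs2, Fst and Esr1 fell, by 2.0 ± 0.15, 0.95 ± 0.085 and 0.36 ± 0.11 (edgeR adjusted p = 6.7e-06, 2.4e-05 and 0.036). These 3 were named after their values were seen. Amhr2, the receptor of anti-Müllerian hormone, was at 39.2 ± 5.1 CPM in Trp53_KO and 0.484 ± 0.19 CPM in Trp53_WT (SD, n = 3 each) and rose by 6.32 ± 0.21 (edgeR adjusted p = 3.6e-08). Inhbb, an activin subunit, rose by 2.58 ± 0.08, Gata4, a gonadal factor, by 2.16 ± 0.08, and Star, the cholesterol carrier of steroid synthesis, by 3.04 ± 0.13 (edgeR adjusted p = 2.7e-08, 5.6e-08 and 2e-07). Of 10 granulosa and theca markers, 4 were tested and 3 rose, with sums of 78.7 to 86.8 CPM in Trp53_KO and 30.2 to 37.5 CPM in Trp53_WT. These 4, Star, Nr5a1, Inha and Amh, are also in the list of 24, and Amh was not called (log2 fold change -0.535). Nr5a1 and Star made up most of these sums, at means of 57.6 and 21.55 CPM in Trp53_KO and 28.8 and 2.62 CPM in Trp53_WT. Fshr, Cyp19a1, Foxl2 and Lhcgr had no count. Of 22 cofactors that bind forkhead proteins, 20 were tested and 3 rose. None fell with edgeR, limma-voom or DESeq2, and 1 was lower at an unadjusted p under 0.05 with edgeR (2 with limma-voom and 0 with DESeq2). The corepressor gene Tle4 rose most, by 1.0 ± 0.06 (edgeR adjusted p = 2.3e-06). Over all partner lists together, 28 of 134 tested genes rose (20.9%) and 23 fell (17.2%), beside the shares of all genes given above.

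The nearest tested gene on each side of the 13 called members gave 25 distinct genes, of which 3 were forkhead genes themselves (Foxq1, Foxf2 and Foxc1). Of the other 22, 9 were called, or 40.9%, where 30.3% of all tested genes were. Of the 9, 7 moved in the direction of the forkhead gene and 2 against it. Mylk2 and Il2rg, among the 7, averaged 0.120 and 0.404 CPM in Trp53_WT. Both passed the filter on low counts through their Trp53_KO libraries. For the members described here, the gaps ran from 3.48 to 965 kb, so many of these genes lay far from the member. Near the Foxo genes, Maml3, 163 kb from Foxo1, fell by 1.04 ± 0.17 (edgeR adjusted p = 0.0014), Edn2, 99.7 kb from Foxo6, rose by 0.77 ± 0.12 (edgeR adjusted p = 9.3e-04), and Il2rg, 3.50 kb from Foxo4, rose by 2.50 ± 0.30 (edgeR adjusted p = 1.8e-04). Mitf, 904 kb from Foxp1, fell by 1.51 ± 0.20 (edgeR adjusted p = 3.4e-04), and Tmem171, 327 kb from Foxd1, by 0.96 ± 0.22 (edgeR adjusted p = 0.010). Thbd, 357 kb from Foxa2, rose by 3.88 ± 0.19 (edgeR adjusted p = 3.4e-07), against the fall of Foxa2.

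The upstream sequence of 3 called genes is shown because, of the 7 called members in the RefSeq promoter table (GRCm38.p6), these had the largest fold changes. Each line is the 250 bases before the RefSeq start, 5′ to 3′ on the gene's strand, with capitals at matches to the GC box GGGCGG, to the CCAAT box, to the TATA box with the letters TATAAA, or to the forkhead core with the letters TGTTTAC, each on both strands. The decamer unit of p53 response elements was searched too, and no 2 kinds of match overlap in these windows.
Foxn1, chr11:78386609-78386858, minus strand: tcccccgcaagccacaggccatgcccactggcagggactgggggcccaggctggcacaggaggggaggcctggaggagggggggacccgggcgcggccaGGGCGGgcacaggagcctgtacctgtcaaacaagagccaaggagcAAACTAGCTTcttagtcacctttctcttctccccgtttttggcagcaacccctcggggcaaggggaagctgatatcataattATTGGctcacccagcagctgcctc
Foxd1, chr13:98353995-98354244, plus strand: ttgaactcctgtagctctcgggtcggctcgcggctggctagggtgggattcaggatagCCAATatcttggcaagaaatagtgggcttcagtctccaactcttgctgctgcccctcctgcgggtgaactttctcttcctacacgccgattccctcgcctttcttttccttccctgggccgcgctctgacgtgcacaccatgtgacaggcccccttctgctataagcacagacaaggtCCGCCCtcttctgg
Foxc1, chr13:31806396-31806645, plus strand: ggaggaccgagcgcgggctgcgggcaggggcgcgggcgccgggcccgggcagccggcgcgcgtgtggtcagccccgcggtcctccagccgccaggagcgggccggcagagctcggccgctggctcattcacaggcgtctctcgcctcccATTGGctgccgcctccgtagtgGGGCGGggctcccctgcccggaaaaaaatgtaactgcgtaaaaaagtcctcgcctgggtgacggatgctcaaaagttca
Each of the 3 has a GC box and a CCAAT match, and the Foxn1 window also has a p53 decamer match. Of 33 entries for 28 members, 23 held a GC box and 14 a CCAAT match, where 32.7% and 33.9% of all 32851 promoters of the table did. A p53 decamer match was in 2 of the 33 and in 7.13% of all, a TATAAA match in 3 and in 12.4%, and the forkhead core in 1 and in 3.17%. The median GC content of the entries was 62.0%, against 52.4% over the table, and the median number of CpG was 16 against 6. A match is a description of letters and no measure of binding.

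The authors' deposited table of repeats gives another reading of the same loci, with a log2 fold change and an FDR for each repeat and read direction. It holds 1910 rows inside or within 10 kb of a forkhead gene. At an FDR under 0.05, 7 were higher, where 0.388% of all rows were, and 1 was lower, where 0.284% were. The depth behind each row is unknown. Of the 7 higher rows, 5 lay around Foxs1. In the authors' deposited table, 3 rows read in the direction of Foxs1, at 84, 412 and 3627 bases past its 3′ end, had values of 4.73, 5.05 and 4.26. A further 2, read against it at 666 and 3894 bases upstream, had 4.96 and 5.34 in the authors' deposited table. The Foxs1 gene itself has no row. The other 2 higher rows were B2 elements, a B2_Mm1t within 10 kb of Foxd2 with 1.72 and a B2_Mm1a within 10 kb of Foxj3 with 1.49 in the authors' deposited table.

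Inside gene bodies, 1470 rows held 0 higher and 1 lower at an FDR under 0.05. The lower row was a (TAGA)n repeat in an intron of Foxn1, with -2.46 in the authors' deposited table (FDR = 1.6e-04). Most rows did not pass but could be read together. In Foxn1, 17 of 18 rows read in the gene's direction were below 0, with a median of -2.27 in the authors' deposited table, beside -2.53 for the gene count. In Foxo1, 74 of 102 were below 0, with a median of -0.76, beside -0.83. In Foxo6, 15 of 16 were above 0, with a median of 0.56, beside 0.96. Among called genes with few rows, Foxf1, Foxd1, Foxf2 and Foxq1, which fell, had 3 of 3, 2 of 2, 4 of 4 and 3 of 4 rows below 0. Foxa2, which also fell, had 2 of 2 above 0, and Foxo4, which rose, had 3 of 5 below 0. Foxp1, with 447 rows, had a median of 0.00 in the authors' deposited table, although its gene count fell by 0.36. These rows come from the same libraries as the gene counts, and those in exons can hold the same reads.

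**Figure D5:**
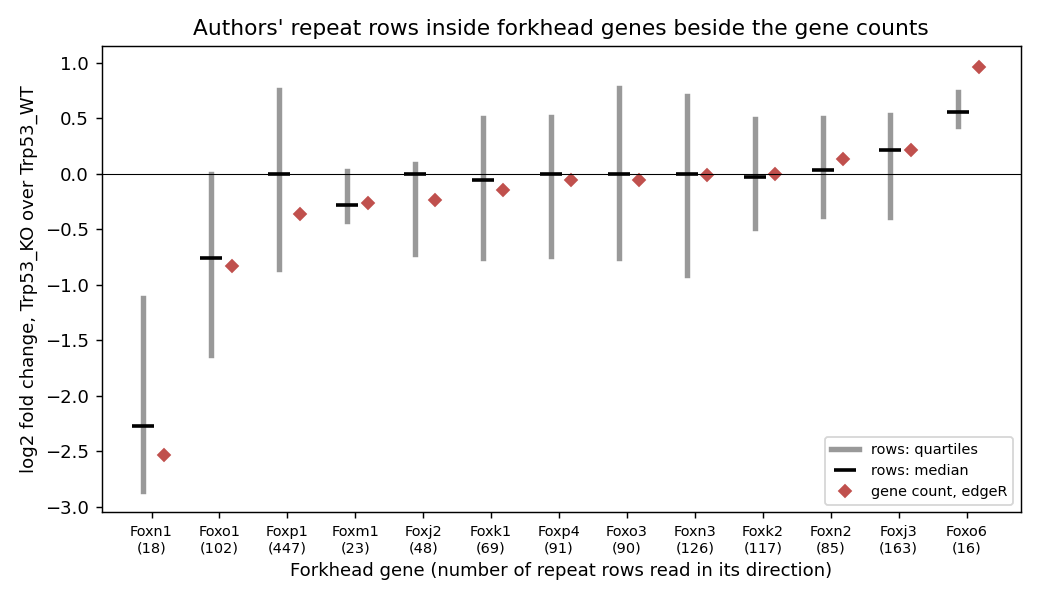
Log2 fold change (vertical axis, Trp53_KO over Trp53_WT) of the authors' repeat rows read in the direction of a forkhead gene (grey bars span the quartiles, black ticks mark the median) beside the gene's own value from counts (red), for genes with at least 15 such rows (number under each name). Foxn1 and Foxo1 are low and Foxo6 high by both readings, and the Foxp1 rows centre on 0.00.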

How the data were processed

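Raw gene counts, with a column for each library, were deposited by the authors, as was a table of repeats with a log2 fold change and an FDR, that is, an adjusted p-value, for Trp53_KO against Trp53_WT. Per the labels' protocols, libraries were stranded total RNA. STAR, featureCounts, edgeR and the build mm10 are named in, and credited to, the submitters' processing notes. Settings and gene annotation: not given in the sources used here. For the repeat table, the log base was checked on 788 exonic rows, where the value of the row over that of the gene had a median of 1.06 (natural logs would give 0.693).

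Of 41327 genes, 18744 had no count and 13651 passed filterByExpr. Counts were scaled by TMM and tested with edgeR 4.0.16 (quasi-likelihood, genotype only, all 6 libraries, R 4.3.3), with Benjamini-Hochberg adjustment and a threshold of 0.05. The biological coefficient of variation was 9.75%. SEs are the fold change over the root of F, and are approximate. Gene positions and exon lengths are from GENCODE M21 on GRCm38, and promoters from RefSeq. The 5′ ends of 29 of 33 promoter entries matched the members' transcripts. Intervals and floors cover counting error only.

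All genes matching the name rule were counted. Called members are given in full, except 1 that is not reported here, with their neighbours and up to 4 genes per list by lowest adjusted p, beside a few that the text says were named after their values were seen. Members and lists were chosen with earlier results of these data known. Alternatives were other scaling and filters, a replicate block, limma 3.58.1 (voom), DESeq2 1.42.0, a stricter threshold, repeats in gene bodies only, and each library left out.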

Additional observations from a re-analysis of the deposited data

How the results depend on the processing

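The count of forkhead genes that rose was 4 under RLE, upper-quartile and library-size scaling, under both other filters, with limma-voom and with DESeq2, and 3 at an adjusted p under 0.01. The count that fell was 9 under the same scalings and filters and with limma-voom, 7 with DESeq2 and 6 at an adjusted p under 0.01. Leaving out 1 library gave 3 to 5 genes that rose and 6 to 10 that fell. For the partner genes it gave 20 to 37 that rose and 17 to 27 that fell. Over all genes it gave 1388 to 2418 that rose and 1589 to 2566 that fell. The highest of these partner and all-gene counts came without Trp53_WT replicate 1. No called forkhead gene changed direction under any of the 14 alternatives run per gene. Foxs1, Foxc1, Foxo6, Foxf1, Foxn1, Foxd1, Foxq1, Foxa2 and Foxp1 stayed past the threshold in all of them. Foxf2, Foxo1 and Foxo4 did not, as given with their values. Counting only repeat rows that overlap a forkhead gene, and not those within 10 kb, left 1 row of 8, since 5 rows around Foxs1 and those near Foxd2 and Foxj3 lie outside the genes. With the replicate number as a block, 4 forkhead genes rose and 9 fell. The correlations of same-numbered libraries' deviations were -0.053, 0.077 and -0.122, and those of the other pairs ran from -0.082 to 0.135. With 3 libraries per genotype, these values cannot decide whether the numbers pair the samples. Genes with few counts, such as Foxd2, Foxj1 and Foxa1, limit what can be said: a difference as large as 0.55 on the log2 scale did not pass there.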

Other observations

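Genes that carry a forkhead name without matching the rule were read as values. Foxred2, which encodes a flavoprotein of the endoplasmic reticulum and no forkhead protein, was at 11.6 ± 0.46 CPM in Trp53_KO and 20.4 ± 0.46 CPM in Trp53_WT (SD, n = 3 each), a fall of 0.81 ± 0.09 on the log2 scale (SE, edgeR adjusted p = 7.8e-05). Foxred1 was at 37.4 ± 1.8 and 36.7 ± 3.6 CPM and did not pass the test (edgeR adjusted p = 0.85). Foxd2os, the noncoding gene beside Foxd2, was at 7.95 ± 1.0 and 6.40 ± 0.31 CPM (SD, n = 3 each) and did not pass either (log2 fold change 0.31 ± 0.13, edgeR adjusted p = 0.11), while a B2_Mm1t repeat in an intron of Foxd2os had 1.72 in the authors' deposited table (FDR = 2.6e-09). Foxo6os had no count in Trp53_KO and 4 counts in Trp53_WT. Fendrr, listed with these genes among the noncoding and head-to-head neighbours, had 3 counts in Trp53_KO and 14 in Trp53_WT and was not tested.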
